A study of Rattus norvegicus with 9 samples.

Results

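Of 32 listed genes of glycolysis and the response to low oxygen, 31 could be followed in embryonic rat ventral spinal cord, out of 14218 genes that the arrays name by a single symbol. A member was every probe set whose platform annotation gives 1 gene symbol equal to a listed name, which found 49 probe sets. Pkm, the pyruvate kinase of embryonic and neural tissue, had none, because the probe set that lists it also lists a pseudogene. Of the 49, 43 were ordinary probe sets and 6 were control probe sets for Gapdh and Hk1. Above the filter on dim signal lay 33 ordinary probe sets of 28 genes. The filter used the mean of the 9 arrays and not the level in 1 group.

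Total RNA came from embryonic day 14, with 1 pool of 5 embryos on each of 9 Affymetrix rat arrays. Per the labels, 4 pools carried a human SOD1 transgene with the G93R mutation (mutant hSOD1), 4 carried a wild-type human SOD1 transgene (wild-type hSOD1), and 1 negative control pool is named as lacking it. SOD1 is the cytosolic enzyme that disposes of superoxide, and mutated forms of it cause inherited amyotrophic lateral sclerosis, in which motor neurons are lost. All pools shared the age and the tissue. The description of the negative control also calls its embryos positive, whereas its title marks it as negative, and it was treated as the negative control. The titles mark the mutant pools G93R(Roth), the wild-type pools hSOD1(Chan) and the negative control SDneg, so that the transgenic groups carry different source names; what these names and SD stand for is not explained. The promoter of the transgenes and the number of rat lines were not given in the sources used here. Mutation, rat line and site of insertion therefore cannot be told apart. In each transgenic group, 3 pools carry the tag le2 in their titles and 1 does not. The tag has no stated meaning, and the negative control lacks it.

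Glycolysis splits glucose into pyruvate in the cytosol, and lactate dehydrogenase turns pyruvate into lactate when oxygen is short or when cells divide fast. Oxygen is sensed by prolyl hydroxylases of the Egln family, which mark the transcription factor subunit Hif1a for destruction while oxygen is present. When oxygen falls, Hif1a persists and, with its partner Arnt, switches on glucose transporters, glycolytic enzymes, the vessel growth factor Vegfa and the mitochondrial protein Bnip3. Hif1a itself is governed mainly as a protein, so that its mRNA is not a measure of its activity. The embryonic cord is a growing tissue into which vessels are still sprouting, and neurons rely on glucose as a main fuel.

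The tissue label was checked against marker genes. Of 10 ventral cord markers on the arrays, 7 lay above the filter, among them the motor neuron genes Isl1 (298 to 605 over the 9 pools), Chat (104 to 180) and Slc18a3 (223 to 525). Their sum was 3982 to 4537 in mutant, 3565 to 4309 in wild-type and 4400 in the negative control pool. Isl1 had 354 to 605 in mutant, 298 to 386 in wild-type and 393 in the negative control pool. The floor plate genes Shh and Foxa2 and the progenitor gene Olig2 were dim, at no more than 2.50, 16.4 and 10.5. Of 5 red blood cell markers 0 lay above the filter, and their summed intensity was 21.4 to 36.8 in mutant, 13.1 to 35.2 in wild-type and 30.5 in the negative control pool. Of 7 endothelial markers 2 did (Tek and Esam), with sums of 75.2 to 94.1, 64.8 to 81.1 and 78.2. Skeletal muscle markers summed to 141 to 170, 124 to 170 and 113, those of mesenchyme and meninges to 50.6 to 74.7, 55.4 to 76.9 and 71.8, and those of cartilage to 48.6 to 75.6, 62.8 to 76.5 and 67.4. The only dorsal cord marker on the arrays, Tlx3, did not exceed 3.22. Sensory ganglion markers, 4 of 6 above the filter, summed to 5187 to 7705 in mutant, 4975 to 5542 in wild-type and 5064 in the negative control pool. This sum was mostly Sncg and Prph, so it cannot be read as ganglion content alone. Sncg had 2843 to 4433 in mutant, 2614 to 2927 in wild-type and 2968 in the negative control pool. Prph had 2067 to 2985, 2090 to 2632 and 1847. Runx1 had 97.4 to 132 in mutant, 43.7 to 103 in wild-type and 56.0 in the negative control pool. Pou4f1 had 137 to 204, 97.9 to 211 and 172. Avil (9.02 to 18.6 over the 9 pools) and Drgx (6.89 to 23.2) lay below the filter. The part of these cell types in the values below was not tested, and in bulk tissue fewer cells of a type and less RNA per cell cannot be told apart.

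Setting mutant against wild-type hSOD1 compares groups that both carry the human gene, with and without the mutation. Their source names differ too, so the mutation cannot be told apart from rat line or site of insertion. No glycolysis or hypoxia gene passed the test. Of the 33 probe sets 0 passed in limma (lowest adjusted p = 0.929), against 3 of all 18625 tested, or 0.0161%, and 1 stood at an unadjusted p under 0.05, against 4.93% of all tested. In mutant pools 22 of the 33 were higher and 11 lower, or 66.7% higher, where 53.7% of all tested probe sets were higher and 46.3% lower, and the median difference was 0.05 on the log2 scale, against 0.01 over all tested. That lean to the mutant side was smaller in some other fits. Without wild-type replicate 2 it was 18 of 33, and without the pools that lack the le2 tag 17 of 33. After adjustment for the beta-actin 3'/5' ratio, a measure of RNA quality, it was 15 of 33. That ratio was 6.98 to 7.98 in mutant and 8.19 to 19.2 in wild-type pools, without overlap. Here and below, the adjustment therefore cannot tell RNA quality apart from the difference between the groups. For 30 of the 33 probe sets, or 90.9%, the 95% interval of the difference lay inside a 1.5-fold change in either direction, against 82.4% of all tested. The exceptions were Slc16a3, Pfkm 1386961_at and Vegfa 1370081_a_at. Log2 differences come from intensities with 8.25 added and understate the change of dim probe sets.

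**Figure D1:**
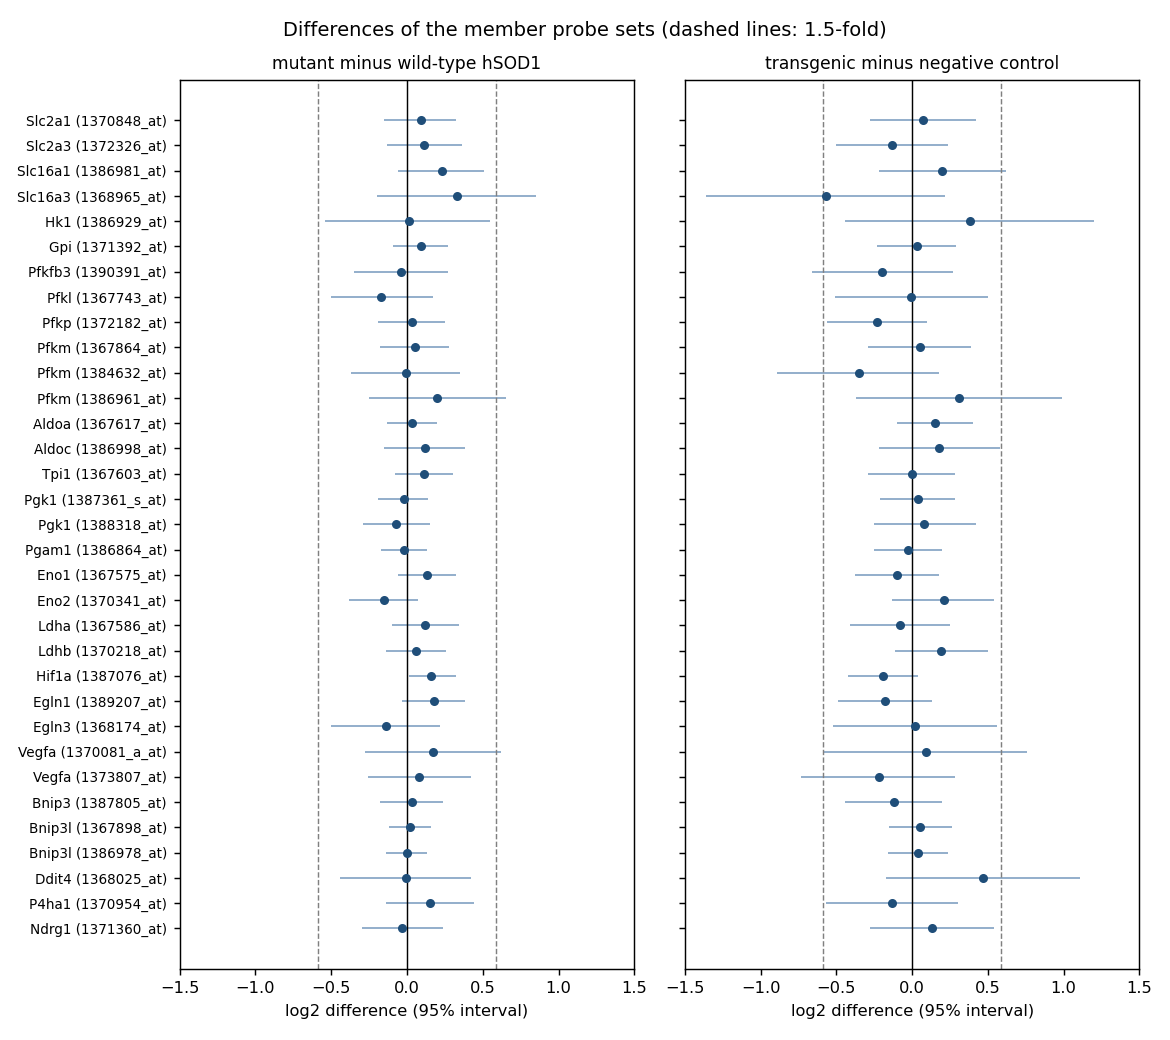
Log2 differences of the 33 member probe sets above the filter with 95% limma intervals, for mutant minus wild-type hSOD1 (4 and 4 pools, left) and for the mean of both transgenic groups minus the negative control (8 pools and 1, right). Dashed lines mark a 1.5-fold change; on the left 30 of 33 intervals lie between them, and on the right 24.

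The glucose carriers came first in the pathway. Slc2a1, the glucose transporter of the blood-brain barrier and of many dividing cells, had intensities of 117, 105, 101 and 111 in mutant replicates 1 to 4. It had 108, 95.5, 106 and 98.1 in wild-type replicates 1 to 4 and 99.6 in the negative control. The groups overlapped, with a difference of 0.09 on the log2 scale (95% interval -0.15 to 0.32, limma adjusted p = 0.950). Slc2a3, the high-affinity glucose transporter of neurons, had 242, 196, 228 and 218 in mutant pools, 173, 229, 195 and 222 in wild-type pools, with 232 in the negative control. Its difference was 0.11 (95% interval -0.13 to 0.36, limma adjusted p = 0.936). Its other probe set, 1387707_at, did not exceed 11.0.

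Monocarboxylate transporters move lactate and pyruvate across the membrane. Slc16a1, which works in both directions, had 121, 117, 134 and 104 in mutant pools, 111, 79.0, 108 and 105 in wild-type pools, with 93.8 in the negative control. Wild-type replicate 2 was the low pool, and the groups overlapped. On the log2 scale they differed by 0.23 (SE 0.131, 95% interval -0.06 to 0.51, limma adjusted p = 0.929), 0.12 without wild-type replicate 2 and 0.05 after adjustment for the actin ratio. Slc16a3, the lactate exporter of glycolytic cells, was dim throughout, with 23.0, 10.3, 24.3 and 26.8 in mutant, 9.86, 10.3, 24.0 and 16.7 in wild-type pools, with 29.6 in the negative control. Its pools spread over 3.00-fold, and the interval of its difference ran from -0.20 to 0.85. Mutant pools were nominally higher at all 4 transporters, with a median difference of 0.17, and 0 of them passed. Over all tested probe sets 53.7% were higher in mutant pools. After adjustment for the actin ratio the differences were 0.03 for Slc2a1, 0.18 for Slc2a3, 0.05 for Slc16a1 and 0.07 for Slc16a3. Without the pools that lack the le2 tag that of Slc2a3 was -0.0072, so that mutant pools were then not higher at all 4.

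Hexokinase traps glucose in the cell as glucose 6-phosphate. Hk1, the hexokinase of brain, had 301, 355, 289 and 557 in mutant pools, 254, 360, 290 and 637 in wild-type pools, with 277 in the negative control. Replicate 4 stood apart in each transgenic group, and the other 7 pools lay between 254 and 360. Mutant and wild-type means were 376 ± 124 and 385 ± 173 (SD, n = 4 each). They differed by 0.0057 on the log2 scale (95% interval -0.54 to 0.55, limma adjusted p = 0.998). The 3' control probe set for hexokinase, dim as it was, also had its highest values in these pools, 21.0 and 29.9, against 4.93 to 15.0 in the others. The middle and 5' control probe sets (at most 4.55 and 10.1) and the remaining ordinary probe set (at most 13.9) were near background. Both replicate 4 pools were the top pair of the 9 at 4.98% of all tested probe sets. Among the members this held for Hk1 and Pfkl; this pattern was singled out after the values were seen. Red blood cell markers, 0 of 5 above the filter, had summed intensities of 22.8 in mutant replicate 4 and 35.2 in wild-type replicate 4. Hk2, the inducible hexokinase of muscle and tumours and a Hif1a target, was below the filter in the fit. It had 2.63, 7.31, 8.84 and 5.96 in mutant replicates, 9.56, 2.31, 4.29 and 9.35 in wild-type replicates and 1.86 in the negative control, so no difference could be read.

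Phosphofructokinase is the committed step of glycolysis, and Pfkfb3 makes an activator of that enzyme. Pfkp, the isoform named for platelets, had 2693, 2210, 2781 and 2936 in mutant, 2702, 2331, 2344 and 3020 in wild-type pools, with 3065 in the negative control. Its groups overlapped almost completely (0.03 on the log2 scale, 95% interval -0.19 to 0.25, limma adjusted p = 0.976). The muscle isoform Pfkm had 3 probe sets, with differences of 0.05, -0.01 and 0.20. On 1384632_at it had 24.2, 22.1, 18.2 and 22.2 in mutant, 21.2, 27.9, 22.8 and 16.6 in wild-type pools, with 30.1 in the negative control. On 1386961_at wild-type replicate 2 had 61.8 and the other 3 wild-type pools 121 to 151. The liver isoform Pfkl ranged from 35.9 to 61.8, with mutant replicate 1 lowest and wild-type replicate 4 highest. Pfkfb3 was 173, 160, 159 and 156 in mutant pools, 190, 116, 193 and 180 in wild-type pools, with 189 in the negative control, so that wild-type replicate 2 was again the low pool. Its 2 other probe sets were below the filter, at 1.97 to 16.5.

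The remaining enzymes of the first stage, which spends ATP, lay within 1.46-fold over the 9 pools. Gpi, which isomerises glucose 6-phosphate, ranged from 667 to 830. Aldolases cleave fructose bisphosphate: Aldoa ranged from 1652 to 2056, and Aldoc, the brain form, from 200 to 292. Tpi1, which interconverts the triose phosphates, ranged from 2175 to 2928. Mutant minus wild-type differences on the log2 scale lay between 0.03 and 0.12, and 0 passed.

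The second stage of glycolysis yields ATP. Gapdh was measured only by its 3 control probe sets, which read the 3', middle and 5' parts of the transcript and were left out of the fit. The 3' part had 3997, 3666, 3664 and 3498 in mutant, 3655, 3159, 3737 and 3763 in wild-type pools, with 3708 in the negative control. The 5' part had 1545, 1444, 1470 and 1359 in mutant, 1414, 887, 1430 and 1363 in wild-type pools, with 1384 in the negative control. Wild-type replicate 2 was lowest on all 3 parts, by most at the 5' end. Mutant exceeded wild-type means by 0.05 on the log2 scale at the 3' part (two-sided exact permutation p = 0.6), 0.11 in the middle (p = 0.429) and 0.22 at the 5' part (p = 0.171). These were 3 of a family of 5 exact tests, and their adjusted p-values were 0.6, 0.536 and 0.285. Without wild-type replicate 2 the differences were -0.01, 0.02 and 0.05.

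Wild-type replicate 2 also had the steepest signal loss towards the 5' end, a sign of RNA quality. Its Gapdh 3'/5' ratio was 3.56, and the other 8 pools had 2.49 to 2.76. For beta-actin, the ratio was 19.2 in that pool, 8.19 to 9.20 in the other wild-type pools, 6.98 to 7.98 in mutant pools and 6.66 in the negative control. The actin ratio was higher in every wild-type pool than in any mutant pool (two-sided exact permutation p = 0.0286, adjusted p = 0.143 over the 5 tests, the smallest p that 70 arrangements allow being 0.0286). Without wild-type replicate 2 the exact permutation p was 0.0571. The Gapdh ratio gave an exact permutation p of 0.0571 with an adjusted p of 0.143.

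**Figure D2:**
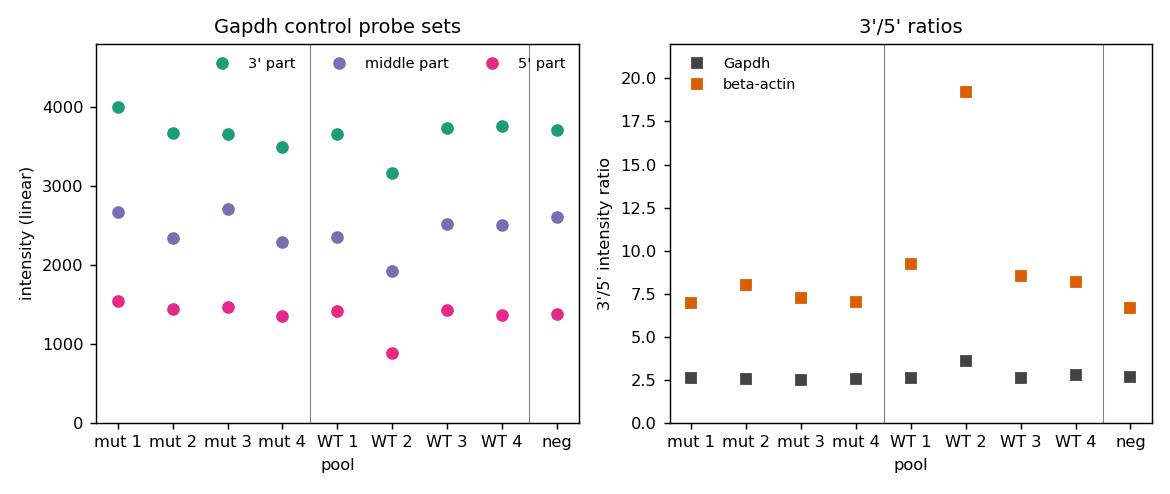
Intensity of the 3', middle and 5' control probe sets of Gapdh in each of the 9 pools (left), and the 3'/5' intensity ratios of Gapdh and beta-actin (right). Each point is 1 pool; wild-type replicate 2 has the lowest Gapdh signal, 887 at the 5' part, and the highest ratios, 3.56 and 19.2.

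Phosphoglycerate kinase, Pgk1, had 2 probe sets above the filter. They ranged from 1258 to 1539 on 1387361_s_at, whose name marks probes shared by several transcripts, and from 2137 to 3086 on 1388318_at. Pgam1, the mutase that follows, was among the steadiest genes, with 1297 to 1513 over all pools. Enolase makes phosphoenolpyruvate, and 2 of its isoforms were measured. Eno1, the widespread form, had 2327, 2042, 2385 and 2132 in mutant, 1899, 1779, 2203 and 2259 in wild-type pools, with 2278 in the negative control (log2 difference of 0.13 with SE 0.0866 and a limma adjusted p = 0.929). With the actin ratio as a covariate the difference of Eno1 was -0.00016, and without wild-type replicate 2 it was 0.07. Eno2, the neuronal form, had 1586, 1637, 1385 and 1273 in mutant, 1577, 1859, 1735 and 1379 in wild-type pools, with 1335 in the negative control (log2 difference of -0.15 with SE 0.103 and a limma adjusted p = 0.929). For Eno2 the same settings gave -0.02 and -0.09. Both enolases overlapped between the groups.

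Lactate dehydrogenase closes the route. Ldha, whose product favours lactate, had 1452, 1270, 1611 and 1345 in mutant, 1136, 1185, 1392 and 1509 in wild-type pools, with 1434 in the negative control (0.12 on the log2 scale, 95% interval -0.10 to 0.34, limma adjusted p = 0.929). The Ldha difference was 0.02 after adjustment for the actin ratio, 0.05 without the untagged pools, and 0.06 without wild-type replicate 1 or without mutant replicate 3. Ldhb, whose product favours pyruvate, had 953, 971, 797 and 759 in mutant, 771, 850, 877 and 826 in wild-type pools, with 741 in the negative control. Its difference was 0.06 (95% interval -0.14 to 0.26, limma adjusted p = 0.959). For both genes the groups overlapped. Several glycolytic genes, Gapdh and Ldha among them, have near-identical pseudogenes, and which copies the probes can bind was not examined here.

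The oxygen sensors held the 2 members that did not overlap between the transgenic groups. Hif1a had 2484, 2460, 2811 and 2431 in mutant pools, 2395, 2076, 2285 and 2329 in wild-type pools, with 2739 in the negative control. The lowest mutant pool lay just above the highest wild-type pool, and the negative control lay in the range of the mutant pools. Means were 2546 ± 178 and 2271 ± 138 (SD, n = 4 each). The difference on the log2 scale was 0.16 (SE 0.0703, 95% interval 0.01 to 0.32, limma adjusted p = 0.929). It was 0.20 without the pools that lack the le2 tag, 0.12 without wild-type replicate 2 and 0.09 after adjustment for the actin ratio.

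Egln1, the main oxygen-sensing prolyl hydroxylase, had 207, 200, 195 and 209 in mutant pools, 175, 189, 187 and 163 in wild-type pools, with 217 in the negative control. All mutant pools exceeded all wild-type pools, and the negative control exceeded both. The difference was 0.18 (SE 0.0956, 95% interval -0.03 to 0.38, limma adjusted p = 0.929), 0.20 without wild-type replicate 2 and 0.23 with the actin ratio. The second Egln1 probe set did not exceed 3.20. Mutant pools were thus higher without overlap at 2 of the 33 member probe sets, where 1.71% of all tested probe sets were, and lower at 0, where 1.24% were. Neither gene passed.

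Egln3, the hydroxylase gene that Hif1a itself induces, was dim, with 33.3, 23.3, 27.6 and 28.9 in mutant, 23.3, 31.8, 39.7 and 33.8 in wild-type pools, with 29.4 in the negative control. It leaned the other way from Egln1, with a difference of -0.14 (95% interval -0.50 to 0.22, limma adjusted p = 0.950).

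**Figure D3:**
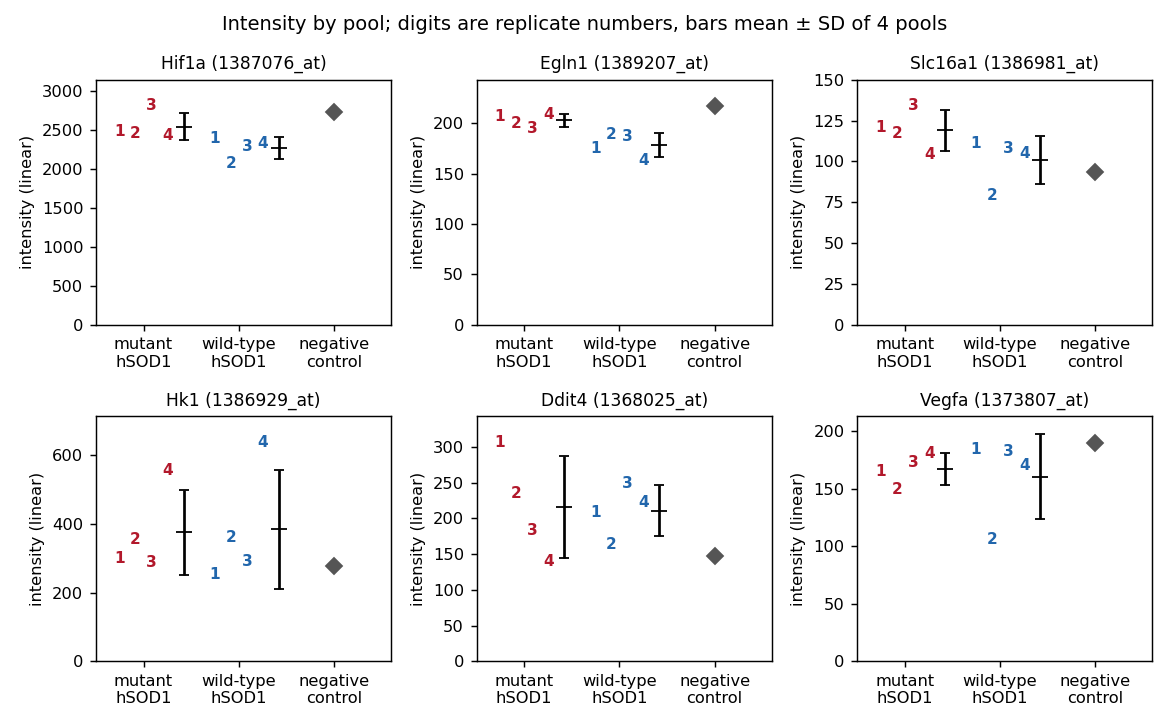
Intensity of 6 members in each pool on a linear axis from 0. Digits give the replicate number, bars the mean ± SD of 4 pools, and the diamond the single negative control. Hif1a and Egln1 do not overlap between mutant and wild-type pools, Hk1 is highest in both replicate 4 pools (557 and 637), and wild-type replicate 2 is the low pool for Vegfa (106).

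Among the targets of the hypoxia response, Bnip3 and Bnip3l code for mitochondrial receptors for mitophagy. Bnip3 had 757, 777, 784 and 737 in mutant, 737, 639, 905 and 738 in wild-type pools, with 822 in the negative control. Mutant pools were tight (764 ± 21.1, SD, n = 4) and wild-type pools spread to either side of them (755 ± 110, n = 4), with a difference of 0.03 (95% interval -0.18 to 0.24, limma adjusted p = 0.978). Bnip3l ranged from 1298 to 1399 on 1367898_at and from 1653 to 1784 on 1386978_at, a span of 1.08-fold on each over all 9 pools. Its 95% intervals, -0.12 to 0.16 and -0.14 to 0.13, were among the narrowest of the members.

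Vegfa, which draws in blood vessels, had 165, 149, 173 and 181 on 1373807_at in mutant pools, 184, 106, 182 and 170 in wild-type pools, with 190 in the negative control. Wild-type replicate 2 alone was low. The difference was 0.08 (95% interval -0.26 to 0.42, limma adjusted p = 0.968), and its sign turned without that pool (-0.10) and after adjustment for the actin ratio (-0.24). On 1370081_a_at the same pool stood at the other end: wild-type replicate 2 was highest (27.0) and wild-type replicate 3 lowest (10.5). That probe set was dim, with values around the filter intensity of about 17.3. Its within-group SD (0.311) was above that of 85.8% of all tested probe sets, so little can be read from this disagreement. Adm, which codes for the vasodilator adrenomedullin, did not exceed 9.22 and lay below the filter.

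Ddit4, an inhibitor of the growth kinase mTORC1 that responds to hypoxia, glucocorticoids and energy stress, had 306, 235, 183 and 140 in mutant pools. It had 209, 164, 249 and 222 in wild-type pools, with 148 in the negative control. Mutant pools alone covered a 2.19-fold range, wider than that of the wild-type pools, which lay inside it. The difference was -0.01 (95% interval -0.44 to 0.42, limma adjusted p = 0.997). P4ha1, a collagen prolyl hydroxylase, ranged from 108 to 166 with mutant replicate 4 highest. Ndrg1 ranged from 98.4 to 139 with wild-type replicate 3 highest, and its other probe set lay below the filter.

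Variation between pools was otherwise small. The median within-group SD of the 33 probe sets was 0.171 on the log2 scale, against 0.185 over all tested probe sets, and 22 of 33 lay below the latter. It was smallest for Bnip3l (0.0352 and 0.0457), Egln1 (0.0740), Pgam1 (0.0776) and Slc2a1 (0.0832). The most variable were Hk1 (0.504), Slc16a3 (0.407), Pfkm 1386961_at (0.389) and Ddit4 (0.372). The SD of Hk1 was above that of 98.2% of all tested probe sets.

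Single pools held the extreme value of many members at once. Wild-type replicate 2 held the lowest of the 9 values at 10 of 33 probe sets (30.3%, against 21.2% of all tested): Slc2a1, Slc16a1, Pfkfb3, Pfkm on 2 probe sets, Eno1, Hif1a, Vegfa, Bnip3 and Bnip3l. It held the highest value at 2 (6.06%, against 19.7%). Mutant replicate 4 was lowest at 8 (24.2%, against 8.78%), most of them glycolytic enzymes: Aldoa, Aldoc, Tpi1, Pgk1, Pgam1 and Eno2, with Bnip3l and Ddit4. It was highest at P4ha1 alone. Wild-type replicate 3 was highest at 8 (24.2%, against 11.3%): Pfkfb3, Pfkm on 2 probe sets, Pgk1, Egln3, Bnip3, Bnip3l and Ndrg1. Mutant replicates 1 and 3 were each highest at 6 (18.2%, against 9.65% and 9.02%). Wild-type replicate 1 was lowest at 6 (18.2%, against 10.7%) and highest at 0, against 8.46%. The negative control was highest at 5 (15.2%, against 10.5%). The probe sets of a pool share its RNA, so these counts are a description. Wild-type replicate 2 was also the pool with the highest 3'/5' ratios, and the part of RNA quality in its low values was not tested.

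**Figure D4:**
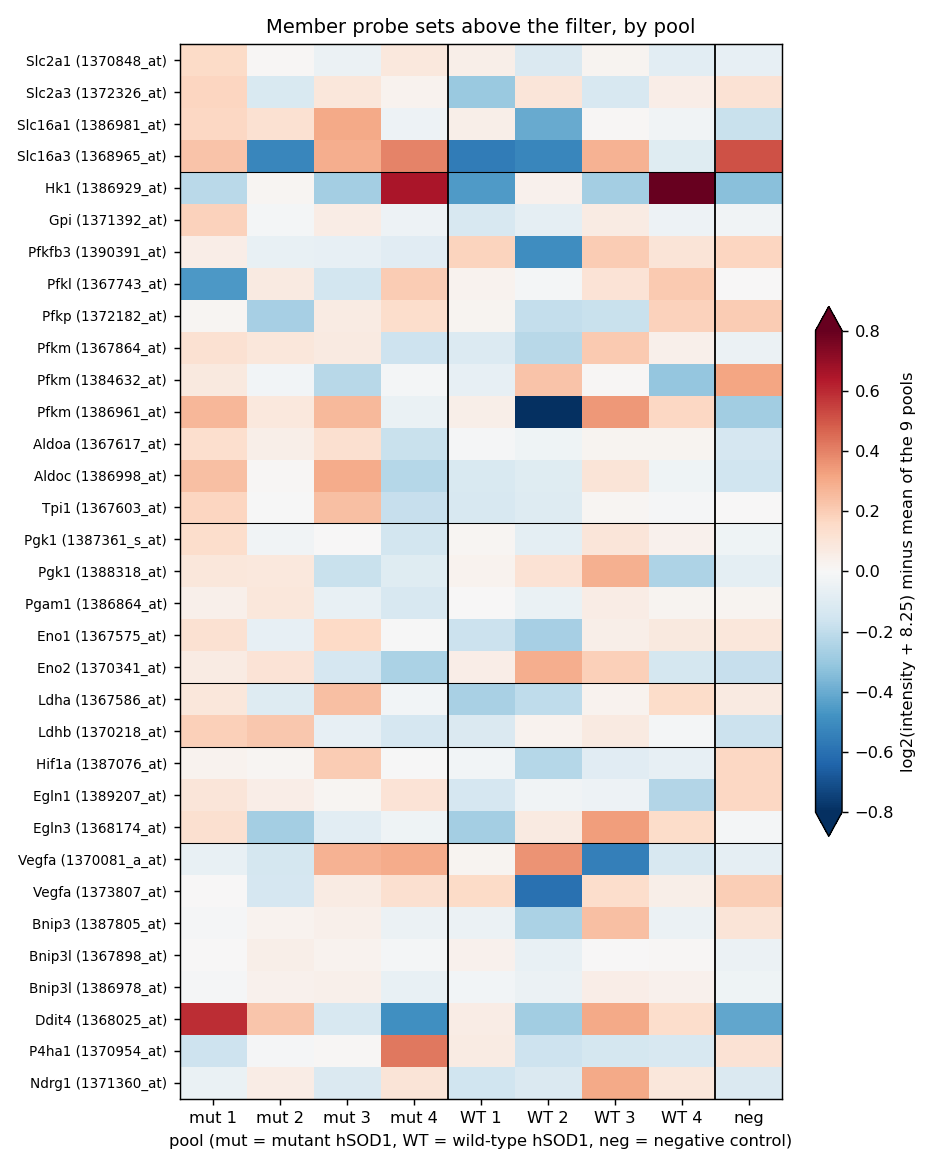
Log2 intensity of each of the 33 member probe sets in each pool, relative to the mean of the 9 pools, in the order transport, upper glycolysis, lower glycolysis, lactate dehydrogenase, oxygen sensing and hypoxia targets; colour is capped at ±0.8. Hk1 stands out in both replicate 4 pools, and wild-type replicate 2 is low for Vegfa 1373807_at, Pfkfb3 and Pfkm 1386961_at.

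**Figure D5:**
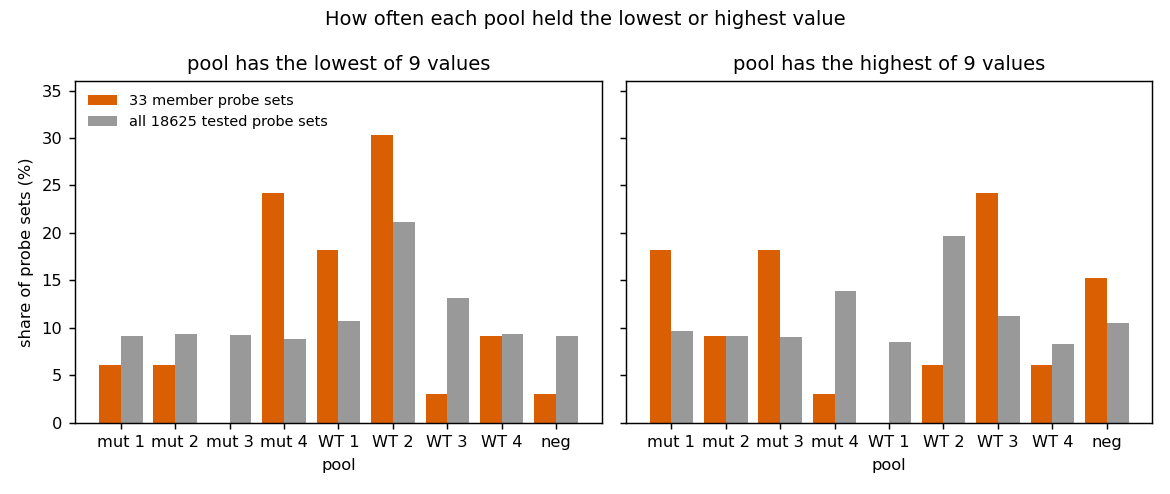
Share of the 33 member probe sets (orange) and of all 18625 tested probe sets (grey) at which a pool held the lowest (left) or highest (right) of the 9 values. Wild-type replicate 2 was lowest at 30.3% of the members and mutant replicate 4 at 24.2%, and wild-type replicate 3 was highest at 24.2%.

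The comparison with the negative control asks what goes with either transgene, and it rests on 1 control pool, whose spread was taken from the transgenic pools. No member passed. For the mean of both transgenic groups, limma called 0 of the 33 (all adjusted p at 1.00 after rounding) and 0 at an unadjusted p under 0.05, against 0 and 3.12% of all tested probe sets. With a transgene 18 were higher and 15 lower (54.5% higher, against 46.5% of all tested), with a median log2 difference of 0.03 and -0.02 over all tested. Lower values made up 53.5% of all tested probe sets. For 24 of the 33, or 72.7%, the 95% interval lay inside a 1.5-fold change, against 50.2% of all tested. All 8 transgenic pools exceeded the negative control at 1 member probe set, where 9.19% of all tested did, and lay below it at 5, where 10.5% did.

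The 1 with all transgenic pools above was Ldhb, at 851 ± 79.0 in the 8 transgenic pools against 741 (0.19 on the log2 scale, 95% interval -0.11 to 0.50). The 5 below were Slc16a3, Pfkp, Pfkm 1384632_at, Egln1 and Vegfa 1373807_at. Their differences were -0.57, -0.23, -0.35, -0.18 and -0.22, and each interval included 0. Slc16a3 was 18.2 ± 7.23 against 29.6, with an interval from -1.36 to 0.22. Pfkp was 2627 ± 299 against 3065, with an interval from -0.56 to 0.10. Hif1a had the smallest unadjusted p (0.0951 in limma), at 2409 ± 208 in the 8 transgenic pools against 2739 and a difference of -0.19 (95% interval -0.42 to 0.04). Mutant replicate 3 alone lay above the negative control there.

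Ddit4 had the largest positive difference among the members. It was 213 ± 52.3 in the 8 transgenic pools against 148, or 0.47 on the log2 scale (SE 0.297, 95% interval -0.17 to 1.11, limma adjusted p = 1.00), and mutant replicate 4 lay below the negative control. With the le2 tag as a covariate the difference was 0.74. Hk1 was nominally higher by 0.38 (95% interval -0.44 to 1.20), and with the tag as a covariate the difference was -0.0012. Both replicate 4 pools carry the tag.

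Each transgenic group was also set against the same negative control, so these values share it. For mutant hSOD1 0 of 33 passed and 0 stood at an unadjusted p under 0.05 in limma, against 2.29% of all tested. For wild-type hSOD1 0 passed and 1 stood at an unadjusted p under 0.05, against 4.28%. In each of these comparisons 18 of 33 were higher than the negative control and 15 lower, where 47.8% and 52.2% of all tested were with mutant, and 45.7% and 54.3% with wild-type hSOD1. The interval lay inside a 1.5-fold change for 21 members with mutant (46.6% of all tested) and for 19 with wild-type hSOD1 (42.8%). The 1 under 0.05 was Hif1a, with a difference of -0.27 (95% interval -0.51 to -0.03, limma adjusted p = 0.980), while for mutant hSOD1 it was -0.11 (-0.35 to 0.13). For Egln1 the differences were -0.27 with wild-type and -0.09 with mutant hSOD1. For Ldha they were -0.14 and -0.02, and for Eno1 -0.17 and -0.04. In other members the mutant pools lay further from the negative control: Slc16a1 differed by 0.09 with wild-type and 0.31 with mutant hSOD1, Pfkm 1386961_at by 0.21 and 0.41, Aldoc by 0.12 and 0.24, and Ldhb by 0.16 and 0.22. These examples were chosen after their values were seen.

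Other listed genes of both pathways did not pass either. Of 38 further listed enzymes and carriers of glycolysis, pyruvate use and the pentose phosphate pathway, 24 lay above the filter on 32 probe sets. Of these 20 were higher (62.5%, against 53.7% of all tested) and 12 lower in mutant than in wild-type pools. The median was 0.03, and 0 passed, against 0.0161% of all tested. Against the negative control 17 were higher (53.1%, against 46.5% of all tested) and 15 lower, and 0 passed, as over all tested. Of 48 listed genes of oxygen sensing and the hypoxia response, 29 lay above the filter on 40 probe sets. Mutant pools were higher at 25 of these (62.5%, against the same 53.7%) and lower at 15, with a median of 0.03, and 0 passed. Against the negative control 20 were higher and 20 lower, and 0 passed.

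Between mutant and wild-type pools the smallest p-values in these lists belonged to genes of the hypoxia list. Tfrc, the transferrin receptor that brings iron into cells, averaged 791 ± 48.7 in mutant and 646 ± 110 in wild-type pools (n = 4 each) and 762 in the negative control, without overlap. Its log2 difference was 0.31 (95% interval 0.05 to 0.56, limma adjusted p = 0.929), and its other probe set differed by 0.28 (95% interval -0.12 to 0.68). Kdm4b, an oxygen-dependent histone demethylase, was 155 ± 12.8 against 128 ± 3.72, also without overlap, with 150 in the negative control and a difference of 0.26 (95% interval 0.03 to 0.48, limma adjusted p = 0.929). Its other probe sets differed by 0.09 and -0.10. Mutant pools were higher without overlap at 2 of the 40 probe sets of the hypoxia list and at 0 of the 32 of the other list. Over all tested probe sets 1.71% were. Car9, a carbonic anhydrase of hypoxic cells, was 32.2 ± 5.27 against 24.9 ± 5.31. Against the negative control the smallest p-values were those of Gbe1, the glycogen branching enzyme, at 579 ± 18.1 over the transgenic pools (n = 8) and 670 in the control, Igfbp3, which binds insulin-like growth factors, at 23.3 ± 5.10 and 13.8, and Taldo1, a transaldolase, at 959 ± 37.3 and 842. Neither these 3 nor Car9 passed (limma adjusted p of 0.929 to 1.00).

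The Hif1a-Arnt pair binds a short core motif, ACGTG or GCGTG, and the promoters of the members were read for it. Many members are listed because Hif1a is known to regulate them, so the share with the motif is not independent of the choice of genes. RefSeq promoter windows on the rat assembly GRCr8, from 250 bases before to 50 bases after a gene's start, were found for 28 of the 32 genes in 33 windows. Slc2a3, Bnip3l, Pgk1 and Ndrg1 had none. On either strand, 21 of the 28 genes (75.0%) held the motif in at least 1 window, against 65.3% of 8295 genes tested on the arrays and 44.6% of all 27457 genes of the table. At least 2 matches in 1 window were found for 15 (53.6%), against 35.7% and 21.1%. A single CACGTG counts here as 2 matches, 1 on each strand. The E-box CACGTG, which contains ACGTG on both strands and is bound by other factors too, was present in 5 (17.9%, against 10.5% and 7.08%). A match is a run of letters and not a measured binding site, and windows rich in C and G hold more of them.

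The windows of 3 members are shown, 5' to 3' on the strand of the gene, with every match in capitals: Ldha has the most matches, Bnip3 is a Hif1a target with an E-box, and Egln1 did not overlap between the transgenic groups.
Ldha, chr1:106507842-106508141, plus strand: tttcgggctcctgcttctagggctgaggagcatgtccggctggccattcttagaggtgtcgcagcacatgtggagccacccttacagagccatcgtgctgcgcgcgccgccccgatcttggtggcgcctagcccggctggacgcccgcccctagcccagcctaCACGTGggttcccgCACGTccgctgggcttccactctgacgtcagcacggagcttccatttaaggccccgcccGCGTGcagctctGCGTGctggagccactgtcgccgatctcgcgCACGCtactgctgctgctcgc
Bnip3, chr1:203154913-203155212, minus strand: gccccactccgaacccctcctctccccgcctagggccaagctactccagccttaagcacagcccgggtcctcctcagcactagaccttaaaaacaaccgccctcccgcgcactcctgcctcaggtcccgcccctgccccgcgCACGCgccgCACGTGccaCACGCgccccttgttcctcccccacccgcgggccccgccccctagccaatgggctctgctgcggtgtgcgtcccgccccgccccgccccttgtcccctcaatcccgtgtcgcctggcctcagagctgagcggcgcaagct
Egln1, chr19:69804632-69804931, minus strand: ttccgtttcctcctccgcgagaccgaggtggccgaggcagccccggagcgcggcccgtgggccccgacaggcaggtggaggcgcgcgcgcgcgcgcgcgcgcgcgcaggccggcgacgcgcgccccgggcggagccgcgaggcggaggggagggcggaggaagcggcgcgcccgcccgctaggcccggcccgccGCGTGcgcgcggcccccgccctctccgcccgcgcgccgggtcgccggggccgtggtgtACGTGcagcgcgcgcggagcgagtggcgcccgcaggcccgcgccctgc
Ldha held 6 matches counted on both strands, Bnip3 4 and Egln1 2, in windows of 66.7%, 71.3% and 84.7% G and C. The CACGTG of Ldha and that of Bnip3 were each counted as 2. The measured differences of the 3 genes between mutant and wild-type pools were 0.12, 0.03 and 0.18 on the log2 scale. Egln3, Vegfa, Adm, Hk2, Tpi1, Slc16a3 and Pkm had no match in their windows, which says only that these letters are not in these bases.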

How the data were processed

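Expression was measured on 9 arrays of 31099 probe sets. The authors deposited linear intensities; the software was not given in the sources used here. In every array the mean without the lowest and highest 2% was 150.05, which shows a common scaling, and the medians lay between 31.0 and 33.9, so no further normalization was added. Symbols came from the platform annotation; the Entrez identifiers of all 31 members were found in RefSeq's gene table and 0 symbols had changed.

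All 57 Affymetrix controls stayed outside the fits. Intensities were taken to log2 after adding 8.25, their 25th percentile over the table. Probe sets with a mean log2 value at or under the 40th percentile (an intensity of about 17.3) were dropped. The other 18625 entered linear models (limma 3.58.1 under R 4.3.3, with moderated variances that follow intensity), p-values were adjusted over the whole table by Benjamini-Hochberg, and calls were made at 0.05. The mutant comparison used 8 arrays, and those with the negative control used 9. Gapdh and 3'/5' ratios were compared by exact permutation tests of log2 values, of which those on Gapdh intensities and those without wild-type replicate 2 were added after the values were seen. The p-values measure the spread between pools, which the labels call biological replicates. On simulated data with the same number of probe sets, this comparison recovered 88.1% of changes of 1.0 on the log2 scale. It recovered 13.4% of changes of 0.5, so small changes could be missed. The changed probe sets there were given the median spread of all tested (SD 0.185) and independent normal noise. The spreads of the others were shuffled over the probe sets, so spread did not follow intensity there. These shares do not cover members with a wider spread, such as Hk1 (0.504) and Slc16a3 (0.407). For dim probe sets a change of 1.0 is also more than 2-fold. Arrays have no read depth; their number limits the precision.

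Values in every pool are given for 14 listed genes, of which Pkm had no probe set, and for the 6 member probe sets with the smallest p in each of the main comparisons; of the other pathway genes, the 3 with the smallest p in each are named. The members, lists and tests were chosen with earlier results of these data known. Alternatives covered the scaling (quantile or by the median), the added constant (2.06 or 33.0), the filter (absent, or the 60th percentile), the variance model (constant, or robust), 1 probe set per gene, covariates (the le2 tag, or the actin ratio), the untagged arrays left out, a fit of all 9 arrays, a replicate block, and each transgenic array left out in turn. Figures were drawn with matplotlib 3.10.9.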

Additional observations from a re-analysis of the deposited data

Results flagged for a closer look

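Each group of 4 pools was checked for a pool far from the others. The check covered the probe sets picked by the naming rule above, with Gapdh by its 3' part, and the 3'/5' ratios. Pfkfb3 and the 5' part of Gapdh were not in it. There wild-type replicate 2 had 116 and 887, and the other wild-type pools 180 to 193 and 1363 to 1430. In the 42 groups checked 2 pools stood out, where chance gives about 1 in 20, and this count leaves out those values. For Hif1a, mutant replicate 3 had 2811, and the other mutant pools lay between 2431 and 2484. For beta-actin, the 3'/5' ratio of wild-type replicate 2 was 19.2, and the other wild-type pools lay between 8.19 and 9.20. Wild-type replicate 2 also had the lowest Gapdh 5' signal of all pools, and the lowest value on the brightest probe sets of Vegfa, Pfkfb3 and Slc16a1. On 1 other probe set of each it had the highest value (27.0 for Vegfa, 16.5 for Pfkfb3 and 2.68 for Slc16a1). Those of Pfkfb3 and Slc16a1 were below the filter and that of Vegfa was close to it. The part of RNA quality in these values was not tested.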

How the results depend on the processing

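Under all 22 alternatives for mutant against wild-type hSOD1 and all 19 against the negative control, 0 member probe sets passed; over the 31 differences of single named members, the lowest adjusted p was 0.577. Of these 31 differences 19 kept their direction under every alternative, those of Hif1a (0.09 to 0.20 between mutant and wild-type pools) and Egln1 (0.14 to 0.23) among them. Members higher in mutant pools numbered 15 (with the actin ratio) to 27 (without wild-type replicate 3). Over all probe sets, the 3 calls between mutant and wild-type pools became 5 with median centring, 1 without a filter, with the higher filter or after adjustment for the tag, 0 in limma without trend (993 at an unadjusted p under 0.05), without the untagged arrays (670) or with the actin ratio (680), and 1 to 3 when 1 array was left out (1 without mutant replicate 1, wild-type replicate 1 or wild-type replicate 3). Against the negative control, median centring and the lower pseudocount each gave 1 call for both transgenes together and for wild-type hSOD1, the lower pseudocount 1 for mutant hSOD1, and leaving out 1 array 0 to 1 (1 without wild-type replicate 1, for both transgenes together and for wild-type hSOD1). The log2 actin ratio differed by -0.53, and by -0.24 without wild-type replicate 2, a setting chosen after seeing the data.

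Some directions turned, mostly of differences under 0.15 in size but also those of Hk1 (0.38) and Vegfa (-0.22) against the negative control; the cause was not tested. Between mutant and wild-type pools, the values without the untagged arrays were -0.0072 for Slc2a3, -0.07 for Hk1 and -0.02 for Ldhb. With the actin ratio they were -0.06 for Hk1, -0.24 for Vegfa, -0.11 for Bnip3, -0.00016 for Eno1, -0.08 for Pfkp and 0.15 for Pfkm 1384632_at. With median centring Hk1 gave -0.01. Leaving out 1 array gave ranges of -0.20 to 0.27 for Hk1, -0.10 to 0.15 for Vegfa, -0.05 to 0.12 for Bnip3, -0.19 to 0.17 for Ddit4, -0.02 to 0.12 for Pfkp and -0.11 to 0.08 for Pfkm 1384632_at. Against the negative control, Hk1 gave -0.0012 and Egln3 -0.06 with the tag as a covariate, Vegfa 0.02 with the actin ratio, and Egln3 -0.03 to 0.07 without 1 array. The replicate numbers are not said to pair the pools, and same-numbered pools correlated in their departures from the group means by 0.124, 0.087, -0.074 and 0.201. With a replicate block 3 probe sets passed and 0 members did (Hif1a 0.16, Egln1 0.18).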
